A study of Drosophila melanogaster with 3 samples.

Results

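Binding of the transcription factor subunit Nf-YB was described at 6 genes of the bHLH-PAS family in the fly, trh, sim, ss, dysf, sima and tgo. Their products pattern the trachea and the ventral midline, specify antenna and distal leg, and carry the response to low oxygen. The genes were chosen by name with earlier results of these peak lists known, in which a peak at trh stood near the top by the authors' signal value. Every optimal summit inside one of these genes or within 5 kb of it was taken, which gave 29 summits of 6221, at 6 genes of 13945 protein-coding ones. The number, rank and width of these peaks are therefore a description, and no test was run on them.

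Chromatin immunoprecipitation with sequencing had been carried out on whole Drosophila melanogaster embryos aged 0 to 24 h, of both sexes. All of them came from 1 transgenic line in which GFP follows Nf-YB at its C-terminal end, and the antibody was directed against GFP. There are 3 biological replicates of 1 group, each with 1 technical replicate, and no other genotype, age or treatment was analysed here. The labels do not say what drives the transgene or whether the fly's own Nf-YB gene was intact, and a summit in whole embryos cannot be assigned to trachea, midline or any other cell type.

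NF-Y is a trimer of A, B and C subunits that recognises the CCAAT box, and the B and C subunits pair through histone folds. Proteins of the bHLH-PAS family bind DNA as dimers. Tango (tgo) is the common partner, expressed in most cells, while Trachealess (trh), Single-minded (sim), Spineless (ss), Dysfusion (dysf) and Similar (sima) are the restricted or regulated partners that give the dimer its function. Dimers of Trh or Sim with Tgo recognise sites with the core ACGTG, and Ss with Tgo recognises GCGTG.

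In the optimal list all 6 genes held at least 1 summit, as did 50.2% of all protein-coding genes. The 6 genes differed widely in the height of their summits. The highest summit of each gene was ranked by the authors' signal value, with rank 1 the highest, and lay at rank 14 for trh, 32 for sim, 93 for ss, 157 for dysf, 2524 for sima and 4489 for tgo. Thus trh, sim and ss held summits among the 100 highest, 3 of 6 genes where 1.10% of all protein-coding genes did. Since earlier ranks were known when the genes were chosen, nothing is read from this share. The common partner tgo and the oxygen-regulated partner sima had only summits of the middle and lower ranks.

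This order of the 6 genes was the same in each of the 3 replicates. The ranges of replicate ranks touched only for trh and sim, at rank 26, and no other neighbours in the order overlapped. Ranks and multiples of a list's median are the only use made here of the signal, which the authors computed and whose relation to depth is not stated.

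**Figure D1:**
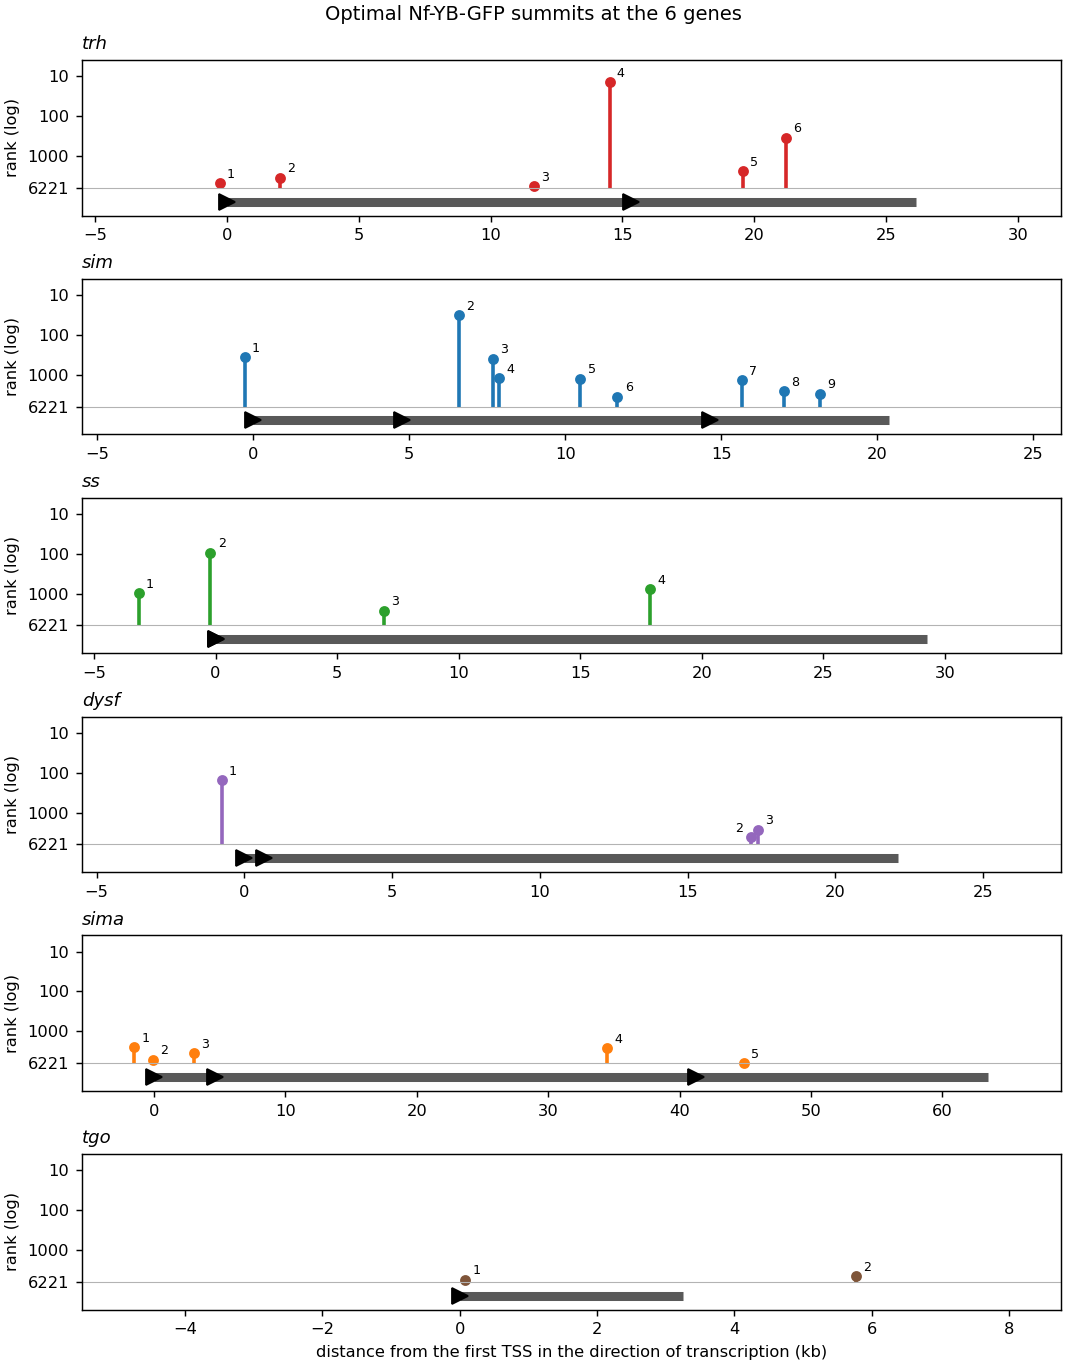
Optimal summits along the 6 genes, in kb from the first transcription start site in the direction of transcription, with the height of each line giving the rank by signal on a log axis. Grey bars are gene bodies, black arrowheads are annotated start sites and the small numbers name the summits. The highest summit stands beside the downstream start site in trh (rank 14), in an intron of sim (rank 32) and just upstream of the gene in ss and dysf (ranks 93 and 157).

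The gene trh (FBgn0262139, chr3L:366524-392633, minus strand, dm6) encodes the master regulator of tracheal and salivary duct fate. It has 2 transcription start sites (TSS), the upstream one at 392633 used by 2 annotated transcripts and the downstream one at 377316 used by 5. Its 6 summits included 5 inside the gene. Summit 4 was the highest at any of the 6 genes. Its peak, chr3L:376984-378790, was 1807 bp wide, its summit lay in an intron 808 bp upstream of the downstream TSS, and the interval extended over that TSS. Its rank was 26 in replicate 1, 17 in replicate 2 and 14 in replicate 3, a mean of 19.0 ± 6.24 (SD, n = 3). Its signal was 275, 274 and 317 times the median of the replicate lists, and its width was 1753, 1846 and 1591 bp. All 3 replicates therefore placed it close to the top of their lists.

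The windows of 101 bases centred on summits 4 and 5 of trh, and a stretch beside the downstream TSS, are shown because they contrast the highest peak, which has the ACGTG core and no CCAAT within 50 bp of its summit, with a lower peak centred on CCAAT. All sequences are from the RefSeq copy of dm6 and run 5′ to 3′ on the strand of the gene. In the windows, capitals mark CCAAT, the core ACGTG or the repeat GAGAG on either strand. On the reverse strand the CCAAT box reads ATTGG, the bHLH-PAS core reads CACGT and the repeat reads CTCTC. The motif GCGTG is left in lower case. In the stretch, capitals mark ACGTG alone. The windows are chr3L:378074-378174 and chr3L:373028-373128, and the stretch is chr3L:377321-377362, all on the minus strand.
trh summit 4: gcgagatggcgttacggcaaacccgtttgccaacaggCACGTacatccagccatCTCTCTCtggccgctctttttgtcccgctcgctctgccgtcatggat
trh summit 5: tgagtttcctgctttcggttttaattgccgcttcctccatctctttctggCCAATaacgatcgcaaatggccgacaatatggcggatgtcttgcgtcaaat
trh stretch: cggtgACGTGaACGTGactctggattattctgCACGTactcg

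The core ACGTG lay 11 bp upstream of summit 4, on the reverse strand. The whole peak held 9 copies of ACGTG in 1807 bp, or 4.98 per kb. Among the 404 optimal peaks of 700 bp or wider the median was 0.872 per kb, and 5 of them (1.24%), this peak included, were as dense. The stretch of 42 bases that ends just upstream of the downstream TSS held 3 of these copies, 762 to 803 bp downstream of the summit. The whole peak also held 9 copies of GCGTG, at the same 4.98 per kb against a median of 1.84, and 5.94% of the wide peaks were as dense. The same peak held 3 copies of CCAAT, the nearest 286 bp from the summit, and its 1.66 per kb compares with a median of 2.47 for the wide peaks. It also held 16 copies of GAGAG, the element bound by the GAGA factor, with overlapping copies each counted. That gave 8.85 per kb against a median of 5.18, and 28.2% of the wide peaks were as dense. The GC content of the whole peak was 49.7%, against a median of 46.4% among the wide peaks. The part of GC content in these densities was not tested. The motif copies are matches of letters and do not show binding by a bHLH-PAS protein.

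The other 5 summits of trh were lower. Summit 6, chr3L:371203-371699, had rank 347 and lay in a coding exon 5874 bp downstream of the nearest TSS of trh. A TSS of another gene lay nearer to it, at 5005 bp. Its replicate ranks were 302, 404 and 454. Coding exons held 52 of the 6221 optimal summits (0.836%) and 6 of the 500 highest. Summit 5, in an intron, had rank 2390, with replicate ranks of 1812, 2082 and 4241, and a CCAAT centred 2 bp from its summit, the closest of any member summit. Summit 2, also in an intron, had rank 3528 and replicate ranks of 2905, 2411 and 6663. Summits 2, 5 and 6 were thus all lower in replicate 3 than in replicates 1 and 2.

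At the upstream TSS, 269 bp away and within an exon of the long noncoding RNA lncRNA:CR45378, summit 1 had rank 4817. Its replicate ranks spread from 3025 and 4195 in replicates 1 and 2 to 16140 in replicate 3, the widest spread among the members. Summit 3, an intronic summit of rank 5706, was matched within 100 bp in replicate 1 alone, at rank 3693. In replicates 2 and 3 the nearest summits lay 126 and 106 bp away, at ranks 5444 and 10463. The upstream TSS therefore had only a low peak, and the high one lay by the downstream TSS.

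The gene sim (FBgn0004666, chr3R:13057755-13078124, plus strand) encodes the master regulator of midline cells of the central nervous system. It held 9 summits, 8 of them inside the gene, and all 9 were found within 100 bp in each of the 3 replicates. Of all protein-coding genes, 50 (0.359%) had as many summits, and of the 1001 protein-coding genes at least as long as sim, 45 (4.50%). Summit 2 was the highest, with a peak of 1116 bp at chr3R:13063673-13064788 in an intron, 1820 bp downstream of the middle one of its 3 TSSs. Its ranks were 33, 30 and 26, a mean of 29.7 ± 3.51 (SD, n = 3), at 230, 226 and 240 times the list medians. Its widths of 1068, 1122 and 1004 bp were also close to each other. Shown are the windows of summit 2, the highest, and of summit 8, with the most GAGAG, at chr3R:13064292-13064392 and chr3R:13074722-13074822 on the plus strand, capitals as before.
sim summit 2: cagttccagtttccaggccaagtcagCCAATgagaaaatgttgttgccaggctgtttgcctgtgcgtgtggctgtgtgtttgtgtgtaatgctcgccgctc
sim summit 8: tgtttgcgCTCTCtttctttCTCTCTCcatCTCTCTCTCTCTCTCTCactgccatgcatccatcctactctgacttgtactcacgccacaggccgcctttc

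A CCAAT was centred 22 bp upstream of summit 2 and a GCGTG 15 bp downstream. The 4 copies of CCAAT in this peak all lay upstream of the summit, between 22 and 486 bp away, and no ACGTG was found in its interval. Summit 8, at rank 2558 near the last TSS, held 10 copies of GAGAG, overlapping copies each counted, all upstream of its centre. Its replicate ranks were 1801, 1727 and 7160, so it was much lower in replicate 3.

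At the first TSS of sim, summit 1 lay 285 bp upstream, in an exon of lncRNA:CR46530 and 206 bp from the TSS of that RNA. It had rank 360 and replicate ranks of 351, 342 and 439. Summits 3 and 4 shared an interval of 635 bp in the intron and lay 218 bp apart. Summit 3 had rank 394 with replicate ranks of 358, 403 and 520, and summit 4 had rank 1229 with replicate ranks of 721, 886 and 2541. The remaining 5 summits ran down the introns towards the last TSS and beyond it, at optimal ranks of 1243, 3543, 1347, 2558 and 2977 in the order of transcription. Their mean replicate ranks ran from 1349 to 3861, and replicate 3 gave each of them its lowest rank, down to 7160 for summit 8. All 4 member summits with GCGTG within 50 bp were at sim, at summits 1, 2, 7 and 8, and 11.6% of all optimal summits had it.

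The gene ss (FBgn0003513, chr3R:16374434-16403690, minus strand) encodes the fly relative of the aryl hydrocarbon receptor, which specifies antenna and distal leg. Among its 4 summits, summit 2 stood at the start of the gene, 207 bp upstream of a TSS, in a peak of 1175 bp at chr3R:16403351-16404525. Its ranks of 91, 95 and 93 gave a mean of 93.0 ± 2.00 (SD, n = 3), and it lay at 133, 122 and 117 times the list medians. No other member summit had so small an SD of its ranks, although its width was 1148 and 1201 bp in replicates 1 and 2 and 841 bp in replicate 3. Its window, chr3R:16403847-16403947 on the minus strand, is shown as the highest promoter summit of the 6 genes.
ss summit 2: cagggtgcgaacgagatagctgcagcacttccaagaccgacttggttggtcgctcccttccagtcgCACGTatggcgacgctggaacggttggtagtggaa

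The ss promoter summit had ACGTG centred 18 bp downstream. Its interval held 8 copies of GCGTG, the core recognised by Ss with Tgo, at 6.81 per kb. The median among the wide peaks was 1.84, and 10 of them (2.48%), this peak included, were as dense. The interval also held 3 copies of ACGTG and 1 of CCAAT, 497 bp upstream of the summit. Its GC content was 51.6%, against a median of 46.4% among the wide peaks, and the part of GC content in these densities was not tested. The other summits of ss had ranks of 986, 2654 and 780. Summit 1 lay 3165 bp upstream of ss, in an exon of lncRNA:CR45630 and only 214 bp from the TSS of that RNA. Its replicate ranks were 806, 792 and 2103. Summit 4, in an intron 17856 bp downstream, had replicate ranks of 663, 715 and 1242. Summits 1 and 4 were both lower in replicate 3. Summit 3, also intronic, was not, at 2904, 2535 and 2812. None of the 4 summits had CCAAT within 50 bp.

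The gene dysf (FBgn0039411, chr3R:26076592-26098711, minus strand), which the choice of genes lists as dys, an older name, encodes a factor of tracheal fusion cells, which join neighbouring branches. Its main peak, chr3R:26098444-26099936, was 1493 bp wide, with the summit in intergenic sequence 762 bp upstream of the first TSS. The ranks were 202, 168 and 132, a mean of 167 ± 35.0 (SD, n = 3), at 69.7, 76.1 and 93.2 times the list medians. Replicate 3 gave the highest rank here. Shown are its window, chr3R:26099423-26099523, which held none of the 4 motifs, and a CCAAT-rich stretch of the same peak, chr3R:26099126-26099226, both on the minus strand. In the stretch, capitals mark CCAAT on either strand.
dysf summit 1: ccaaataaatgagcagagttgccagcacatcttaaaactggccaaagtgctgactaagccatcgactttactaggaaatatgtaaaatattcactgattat
dysf stretch: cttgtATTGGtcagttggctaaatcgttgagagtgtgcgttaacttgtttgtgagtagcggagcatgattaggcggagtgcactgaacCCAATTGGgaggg

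The whole dysf peak held 11 copies of CCAAT in 1493 bp, counting both strands, or 7.37 per kb. The median of the wide peaks was 2.47 per kb, and 5 of 404 (1.24%), this peak included, were as dense. The nearest copy lay 100 bp from the summit, so its copies stood on both sides of the summit, 5 upstream and 6 downstream, and none within 50 bp of it. In the stretch, 247 to 347 bp downstream of the summit, CCAATTGG reads the same on both strands and counts as 2 copies. The GC content within 100 bp of this summit was 36.8%, against a median of 49.3% over the member summits and 39.3% over all optimal summits. Over the whole peak it was 37.8%, against a median of 46.4% among the wide peaks. The part of GC content in the density of CCAAT was not tested.

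Near the far end of dysf, summits 2 and 3 lay 215 bp apart in an intron. Summit 3 had rank 2675 and was found in replicates 1 and 3, at ranks 2249 and 3797. Summit 2 had rank 4199 and replicate ranks of 4607, 2189 and 6362. In replicate 2 the summit of rank 2189 was also the nearest to summit 3, but lay 119 bp from it and so outside the 100 bp allowed. Summit 3 and trh summit 2 were the member summits with CCAATCAG, a longer form of the CCAAT box, within 50 bp. This form was looked for after the windows had been read, and 1.72% of all optimal summits and 7.60% of the 500 highest had it. The sites are shown because they share the bases that follow the box, with CCAAT in capitals. They lie at chr3L:390602-390616 and chr3R:26081315-26081329, both read on the plus strand.
trh summit 2 site: ggccaCCAATcagag
dysf summit 3 site: ggcggCCAATcagag

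The gene sima (FBgn0266411, chr3R:30058311-30121798, plus strand) encodes the fly relative of the hypoxia-inducible factor alpha subunit. It is the longest of the 6 genes, at 63.5 kb, and held 5 low summits, all found in the 3 replicates. Its highest, summit 1, of rank 2524, lay in intergenic sequence 1537 bp upstream of sima but only 85 bp from the TSS of the neighbouring gene Rpp14a, which encodes a subunit of ribonuclease P. Its replicate ranks were 3149, 3862 and 2245, and CCAAT was centred 7 bp upstream. Its window, chr3R:30056724-30056824 on the plus strand, is shown as the only sima summit with CCAAT.
sima summit 1: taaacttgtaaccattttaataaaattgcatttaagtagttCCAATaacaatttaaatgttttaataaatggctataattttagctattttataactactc

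Summit 2, 55 bp upstream of the first sima TSS, had rank 5109 and replicate ranks of 4820, 5227 and 6066. Summits 3 to 5 were intronic, at ranks 3529, 2613 and 6204. Summit 5 stood at the very end of the optimal list, with replicate ranks of 9579, 4971 and 7462. Summit 4, 6722 bp upstream of the nearest TSS of sima, was steadier at 2809, 3534 and 2462. No sima peak was wider than 444 bp.

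The gene tgo (FBgn0264075, chr3R:9016773-9020022, minus strand), the shared partner, is the shortest of the 6 genes, at 3.25 kb. Summit 1 lay in its 5′ UTR 79 bp downstream of its TSS, at rank 5464, and was matched in replicate 1 alone, at rank 5978. In replicate 2 the nearest summit lay 109 bp away, at rank 5748, and in replicate 3 it lay 5682 bp away. Summit 2, at rank 4489, lay 2517 bp beyond the gene and 34 bp from the TSS of the neighbour Kcmf1, in its 5′ UTR, with replicate ranks of 4321, 12024 and 4144. The higher summit counted for tgo thus stood at another gene's promoter, and the one at its own promoter was found in 1 of 3 replicates within 100 bp. Neither had any of the 4 motifs within 50 bp.

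**Figure D2:**
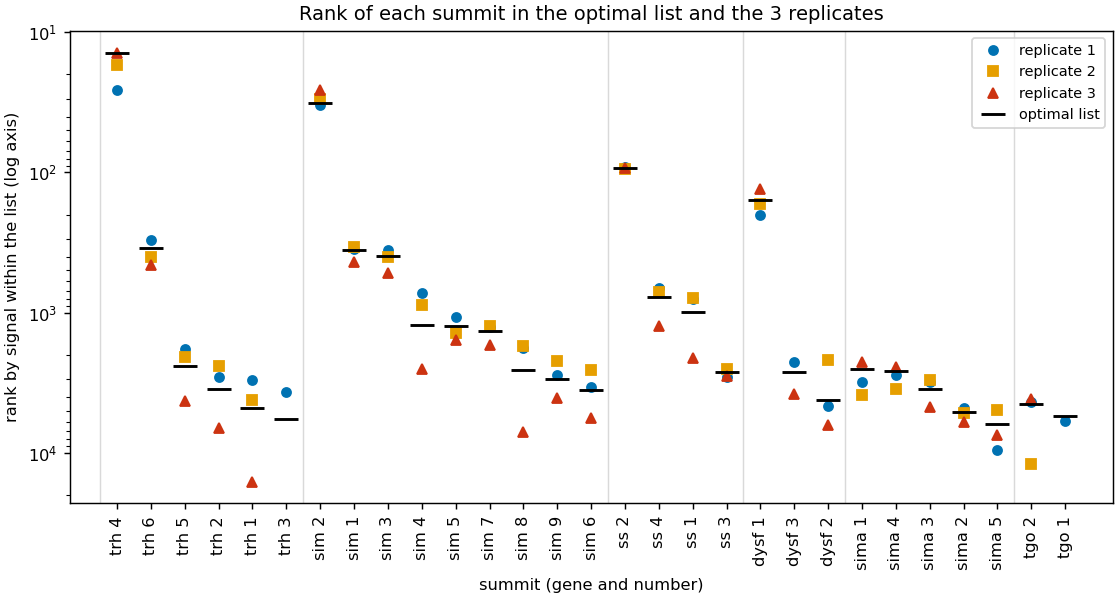
Rank by signal of the 29 member summits in the optimal list (black bars) and in replicates 1, 2 and 3 (coloured symbols), on a log axis with high ranks at the top. The 3 replicates lie close together at the highest summits of trh, sim, ss and dysf, and spread at lower ones, up to 16140 in replicate 3 for trh summit 1.

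Across the 29 summits, 26 (89.7%) were found within 100 bp in all 3 replicate lists, against 85.9% of all optimal summits, a difference of few summits. The missing ones were trh summit 3, tgo summit 1 and dysf summit 3. The replicate lists hold 30000 peaks each, so a match could be a low peak. The matched summits were among the 6221 highest of all 3 lists for 20 members, and for 54.5% of all optimal summits. The largest distance between an optimal summit and its replicate summit had a median of 29 bp, and of 34 bp over all optimal summits. The median rank was 2558 for the members and 3111 for the whole list. The replicate SD divided by the mean rank had a median of 0.288 for the members and 0.323 for all. The ranks of the members had Spearman correlations of 0.946 between replicates 1 and 2 (26 summits), 0.857 between 1 and 3 (27 summits) and 0.817 between 2 and 3 (26 summits). Over all optimal summits they were 0.844, 0.642 and 0.649. These correlations are over summits that share a library and a control, and they are given as a description.

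Replicate 3 stood somewhat apart at these genes. Its rank was worse than the mean of replicates 1 and 2 at 19 of 26 member summits (73.1%), against 45.9% of all optimal summits found in the 3 lists, with a median ratio of 1.32 against 0.929. Among the 7 members in the 500 highest its median was 1.00, as over all summits of that band. In the bands that end at ranks 2000, 4000 and 6221 it was 1.80, 1.62 and 1.21 over 5, 9 and 5 members, where all summits had 0.897, 0.910 and 0.937, so it followed no steady trend with rank. GC content within 100 bp of the summit had a median of 49.3% for the members and 39.3% for all, and 21 members had a GC content of 45% or more, as had 34.6% of all summits. Of all such summits, 67.6% were worse in replicate 3, and of those with less GC 33.6%. Among the members the counts were 16 of 20 and 3 of 6. The Spearman correlation of GC content with the ratio was 0.450 over all summits and 0.0843 over the 26 members. Of these 26, 20 had a GC content of 45% or more, which leaves little range for a correlation. The part of GC content in the replicate 3 ranks was not tested.

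**Figure D3:**
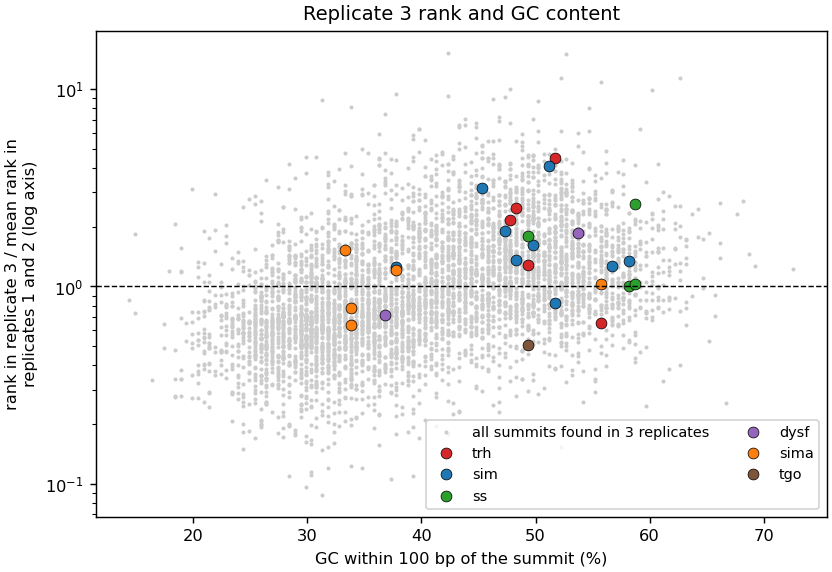
Ratio of the rank in replicate 3 to the mean rank in replicates 1 and 2 (log axis) against GC content within 100 bp of the summit, for all optimal summits found in the 3 replicates (grey) and the 26 member summits (coloured by gene). The dashed line marks equal ranks. Most members lie on the right, at a GC content of 45% or more, and above the line, with 16 of those 20 above it.

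With 4 or more summits each, trh, sim, sima and ss made 4 of 6 members, where 5.23% of all protein-coding genes and 26.3% of those of 20 kb or longer had as many. Long genes offer more room, and all members but tgo are longer than 20 kb. Per 10 kb of gene and flanks, sim held 2.96 summits, trh 1.66, tgo 1.51, ss 1.02, dysf 0.934 and sima 0.680. Among genes at least as long as each, a count as high was seen for 14.9% at trh, 28.6% at ss, 27.3% at sima, 38.0% at dysf and 36.3% at tgo.

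Of the 29 summits, 5 (17.2%) lay within 500 bp of a TSS of their gene, 7 (24.1%) at 500 to 2000 bp and 17 (58.6%) farther away, with a median distance of 2978 bp. Counted alike over the protein-coding genes of 20 kb or longer, which gave 2514 pairs of summit and gene, the shares were 21.4%, 16.5% and 62.1% and the median was 3496 bp. Inside the genes lay 21 of the 29 (72.4%), against 69.1% of those pairs, so the placement was near that of long genes in general. Introns held 19, where 44.0% of all optimal summits were intronic and 41.9% intergenic. The intronic share was not computed for long genes alone, so nothing is read from this difference. A summit within 500 bp of a TSS was present for 5 of 6 genes, against 21.6% of all protein-coding genes. The share for long genes alone was not computed. At trh, sima and tgo this promoter summit was a low one, of rank 4817, 5109 and 5464, and at sim and ss a high one, of rank 360 and 93. The gene without one was dysf, whose high summit lay 762 bp upstream.

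The authors' lists give many peaks 1 set width, 444 bp in the optimal list, which 53.3% of all optimal peaks and 11 of 29 member peaks (37.9%) had. Of the members, 4 were 700 bp or wider, against 6.49% of all peaks, and these were the highest peak of trh, sim, ss and dysf. Such widths are the rule among high peaks, since 150 of the 157 highest (95.5%) and 63.4% of the 500 highest were as wide. The rank and width of the members had a Spearman correlation of -0.506 over 29 peaks, and of 0.0531 over all 6221, where the set width fills much of the lower ranks.

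**Figure D4:**
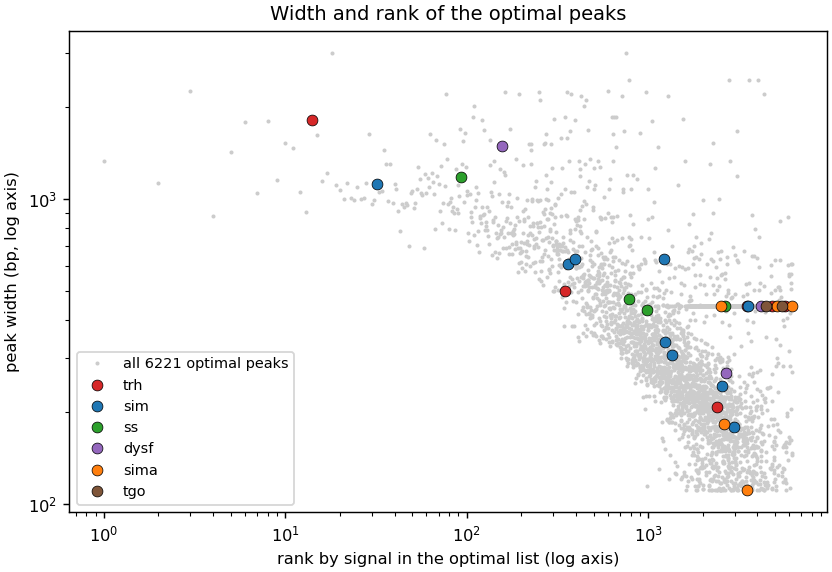
Peak width in bp against rank by signal in the optimal list, both on log axes, for all 6221 peaks (grey) and the member peaks (coloured by gene). The 4 member peaks of 700 bp or wider, at ranks 14, 32, 93 and 157, lie at the upper left, and 11 of the others lie on the horizontal line at the set width of 444 bp.

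Of the motifs searched within 50 bp of the summit, CCAAT was present at 9 of 29 member summits (31.0%), against 27.0% of all optimal summits, and so near the background. In windows of the same size 500 bp to both sides it was present in 11 of 58 (19.0%), and for all summits in 18.5%. Among the 500 highest, 3 of 7 members and 48.8% of all summits had it. It was found at 4 summits of sim, 3 of trh, 1 of sima and 1 of dysf. ACGTG was present at 4 (13.8%), against 6.74% of all, at trh summit 4, sim summits 4 and 5 and ss summit 2. In 3 of these it was part of TACGTG, a longer form looked for after the windows had been read. It was present at 1.64% of all optimal summits and 1.20% of the 500 highest, and in 2.39% of the windows to both sides of all summits. In the windows to both sides, ACGTG was present in 1 of 58 for the members and in 9.15% for all summits, so over the whole list it was rarer at the summit than beside it. GAGAG was present at 7 (24.1%), against 18.0%. With so few summits these counts are a description. Of the 29, 11 had none of these 3 motifs.

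Genes of the same pathways were counted for a summit within 500 bp of a TSS, beside the 21.6% of all protein-coding genes. Of 14 genes of tracheal development, 12 had one. The highest were at esg (rank 47), a zinc finger gene of fusion cells, vvl (83), a POU domain gene, pnt (185), an ETS gene downstream of receptor tyrosine kinases, and rib (477), a BTB gene of tube growth. Their replicate ranks were 52, 60 and 49 for esg, 83, 74 and 83 for vvl, 205, 215 and 150 for pnt, and 424, 450 and 695 for rib. The tracheal genes without a promoter summit were salm and btl. The latter encodes the FGF receptor of the trachea, a known target of Trh, and had no optimal summit inside it or within 5 kb.

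Of 13 midline genes, 5 had a promoter summit. They were led by D (rank 35), a Sox gene, vvl (83), spi (962), which encodes an EGF receptor ligand, and aos (1118), which encodes an inhibitor of that receptor. All 13 had a summit inside or within 5 kb, so 8 of them had summits away from the promoter alone. Of 10 antenna and distal leg genes, 7 had a promoter summit, the highest at the homeobox gene Dll (29), at al (107), at danr (242) and at hth (252). Of 8 genes of the hypoxia response, 5 had one, at Ldh (761), bnl (1702), scyl (2701) and chrb (3197) and Thor (4832). Of 6 other genes with PAS domains, 2 had one, tai (1713) and gce (6080), and the circadian gene Clk had no summit within 5 kb. The tracheal list shares vvl and rho with the midline list and bnl and btl with the hypoxia list. Counted once, 28 of 47 genes (59.6%) had a promoter summit.

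**Figure D5:**
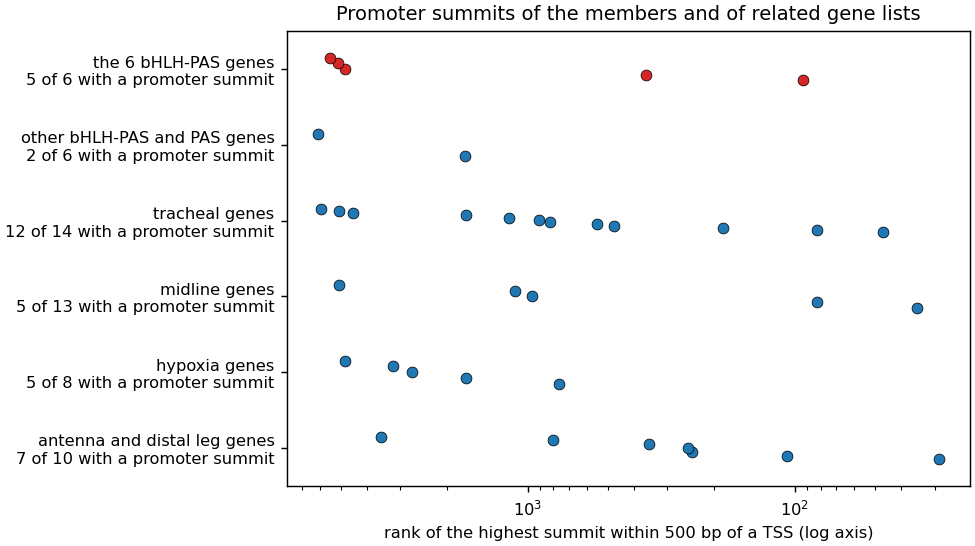
Rank of the highest optimal summit within 500 bp of a TSS (log axis, high ranks to the right) for each gene that had one, in the 6 genes (red) and 5 related lists (blue). The tracheal list had 12 of 14 genes with such a summit and the midline list 5 of 13, and the highest ranks were 47 and 35.

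Genes of like pattern were sought among the protein-coding genes with the same number of summits, by the sum over the 3 replicates of the absolute difference in log10 rank of the highest summit. The nearest to trh were L (0.73) and mod(mdg4) (1.09), of 83 genes with 6 summits. The nearest to sim were retn (0.35) and inv (0.52), of 12. The nearest to ss were croc (0.12) and repo (0.14), of 325, and to dysf mid (0.11) and Pepck2 (0.14), of 776. For sima they were fz2 (0.10) and Evi5 (0.18), of 158, and for tgo prel (0.10) and CG9945 (0.14), of 1689. The sum for the nearest gene was thus largest at trh. A step in rank counts for more in log10 near the top of a list, where trh stands, and the numbers of genes compared differed. Nothing is therefore read from this.

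At the edges of the choice, the summits just inside the 5 kb limit were tgo summit 2, 2517 bp from its gene, and ss summit 1, at 3165 bp. Just outside were a summit 5137 bp from trh, at rank 4690 and nearest to Cdc5, 1 at 7218 bp from ss (rank 700), 1 at 7795 bp from trh (rank 1983), 1 at 8090 bp from dysf (rank 1858, nearest to Cipc) and 1 at 10290 bp from ss (rank 402). Those at ss, with ss as the nearest protein-coding gene, were higher than all its counted summits but the one at its promoter.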

How the data were processed

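Peak lists of 3 replicates, a pooled list and an optimal list were used. Per the readme texts and labels, the authors called peaks on each replicate against 1 control alignment, called the pooled list on all 3 alignments, and derived the optimal list by the irreproducible discovery rate (IDR). Aligner, caller, software versions and IDR threshold: not given in the sources used here. Control reads were not analysed here. Each list, as deposited, gives the interval, the authors' signal value, a −log10 q-value and the summit of each peak in dm6. Signal gave ranks within a list, and the deposited −log10 q-value was an alternative ranking. Fragments of 200 to 800 bp per the labels limit resolution, and the read depth is unknown from these files, so no interval that needs depth was computed. The replicate lists and the pooled list hold 30000 peaks each, and the optimal list is the 6221 pooled peaks of highest signal.

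Genes came from Ensembl release 115 on the main chromosome arms, and sequence from RefSeq. Of 16213 annotated start codons, 16193 (99.9%) read ATG. The symbol dys matched no gene there. It is an older name of 3 genes, of which dysf, the bHLH-PAS gene, was taken. Summits within 100 bp were matched between lists. No 2 replicate lists shared an identical peak.

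The members, the 5 gene lists and the 4 motifs (searched on both strands, overlapping copies each counted; TACGTG contains ACGTG) were chosen with earlier results of these data known. Named were all members and their summits, up to 4 bound genes of highest signal per list, neighbours whose TSS or body held a summit, and the 2 genes most like each member. Thor, salm and btl fall outside this rule and were named after their values were seen. Clk, rho, Cdc5 and Cipc are named outside it as well. No test was run, since there is 1 group and peaks are not replicates. Alternatives were other windows, the higher-signal part of the list, other rankings and leaving out each replicate. The scripts were tested on simulated data. Python 3.11.15, pandas 2.3.3, NumPy 2.4.6 and matplotlib 3.10.9 were used.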

Additional observations from a re-analysis of the deposited data

How the results depend on the processing

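Of 71 alternatives computed, 14 moved a count by over 1.5 times or a median by over 1 SD between replicates. Of the others, 4 could show nothing, since the set width or tied q-values fix them, and 53 stayed within those limits. With the 3110 peaks of highest signal alone, the summits at the 6 genes numbered 19 in place of 29, the members with a promoter summit 2 in place of 5, the other PAS genes with one 1 in place of 2, and the hypoxia genes 3 in place of 5. With a promoter window of 250 bp the members with a summit numbered 3 and the other PAS genes 1. With the 6221 highest peaks of replicate 3 the members with a promoter summit numbered 3. The median of the mean replicate rank, 2731, ran from 1856 without replicate 3 to 2836 when 1 replicate was left out. The summits found in all remaining replicates then numbered 26 to 27. The median distance to a TSS, 2978 bp, was 2899 with a window of 2 kb and 3165 with one of 10 kb. CCAAT was found at 4 summits within 25 bp and at 14 within 100 bp in place of 9, and its longer form CCAATCAG, chosen after seeing the data, at 2. ACGTG was found at 2 within 25 bp in place of 4, and its longer form TACGTG, also chosen after seeing the data, at 3. Leaving out dysf, also added after seeing the data, left 26 summits. A ranking by q-value could not separate the peaks, since 5672 of 6221 share the highest q-value. No paired analysis was possible because there is 1 group. Low peaks are the least certain, since depth is unknown and replicate ranks spread most there.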

Other observations

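Below the optimal list, the pooled list held further summits inside the 6 genes or within 5 kb, 19 at trh, 11 at sim, 1 at tgo, 13 at sima, 19 at ss and 8 at dysf. Those found within 100 bp in all 3 replicates numbered 4 at trh, 4 at sim, 3 at ss, 1 at sima, 1 at dysf and 0 at tgo. The share over all pooled peaks below the optimal list was not computed, so nothing is read from these counts. The highest of these further summits, at pooled rank 6271, lay at sim, with replicate ranks of 3120, 21834 and 11184. At sim a further summit at pooled rank 6443 lay 168 bp upstream of the last TSS, with ranks of 3708 and 6344 in replicates 1 and 2 and no match in replicate 3. In the replicate lists the summits at ss numbered 30, 25 and 11 in replicates 1, 2 and 3. They numbered 24, 29 and 20 at trh and 23, 25 and 15 at sim. At dysf they numbered 17, 13 and 7, and at tgo 3, 3 and 1. At sima they numbered 16, 17 and 23, so replicate 3 had the fewest at every gene but sima. These counts were not set beside those of all genes.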
